A study of Mus musculus with 8 samples.

Results

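The 50 genes described here make the machinery that copies DNA in S phase and the enzymes that supply its building blocks. They were matched by gene symbol to a table of 24346 mouse genes, and all 50 were in the table. The choice of these genes was made with earlier results of these data known. By role they fell into 6 subunits of the origin recognition complex, 3 factors that license origins, 6 subunits of the MCM helicase, 6 factors that activate the helicase, 9 subunits of the replicative polymerases, 6 genes of the sliding clamp and its loader, 5 genes of single-strand binding and Okazaki fragment maturation, 5 enzymes of deoxynucleotide supply and 4 genes that package or mark the new DNA. RNA was sequenced from mouse immature oligodendrocytes (iOLs) in 8 libraries, 4 Med23+/+ and 4 Med23-/-. The iOLs were grown from primary oligodendrocyte precursor cells (OPCs) of brains taken on the seventh day after birth. The OPCs were captured on an antibody to CD140a, the product of Pdgfra, after endothelial cells and microglia had been depleted on a lectin, and were expanded with PDGF-AA and NT-3. For 1 day, both genotypes then received the thyroid hormone T3 (triiodothyronine) at 15 nM and CNTF (ciliary neurotrophic factor) at 10 ng/mL. In the Med23-/- cells floxed Med23 alleles were the target of Olig1-cre, a Cre made in the oligodendrocyte lineage, and the labels call the controls WT. The study's control littermates of this line were Med23 fl/fl, without Cre. Replicates are numbered 1 to 4 in each genotype, but nothing says that they came from separate animals, so the p-values measure the spread between these libraries, which may be in part technical.

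Replication is prepared in G1, when the origin recognition complex, CDC6 and CDT1 load the MCM helicase on DNA as an inactive ring. In S phase, CDC45 and the GINS complex turn the ring into the active helicase, DNA polymerase alpha and primase start each strand, and polymerases delta and epsilon extend it on the sliding clamp PCNA. Ribonucleotide reductase, thymidylate synthase and thymidine kinase feed the forks with deoxynucleotides. OPCs are dividing cells that leave the cell cycle as they become oligodendrocytes, and many genes of this machinery are targets of the E2F transcription factors in cycling cells.

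Values are FPKM, fragments scaled by transcript length and by library size, and how library size was set is not given in the sources used here. Each fold change is a difference of mean log2(FPKM + 1), Med23-/- minus Med23+/+, tested by limma with Benjamini-Hochberg adjustment over 12328 genes. Fold changes are given ± their standard error (SE). Adding 1 FPKM makes the fold change of a low gene smaller than the ratio of its means. Med23, which encodes a subunit of the Mediator complex and lies at chromosome 10, 24869986 to 24913681 (mm10), read 12.7, 12.2, 12.6 and 12.6 FPKM in Med23+/+ against 8.397, 7.93, 8.49 and 8.21 FPKM in Med23-/-. The genotypes did not overlap, and the Med23-/- mean was 0.658 times the Med23+/+ mean (log2 fold change -0.55 ± 0.07 SE, limma adjusted p = 0.000353). Which part of the transcript is lost on recombination is not given in the sources used here, so reads outside it count toward these values. The worth of 1 read, a measure of relative depth taken from values under 0.1 FPKM, lay between 0.742 and 1 relative to Med23+/+ replicate 1. The whole-table scaling factors of the 8 libraries lay between 0.977 and 1.02. Among markers of other cells, the 10 microglial genes were all under the filter of a mean of 1 FPKM, with sums of 1.66 to 3.39 FPKM in Med23+/+ and 2.79 to 3.84 FPKM in Med23-/-. Of 6 endothelial genes, only Kdr was tested (log2 fold change 0.77 ± 0.25 SE, limma adjusted p = 0.0398), and the sums were 0.509 to 1.19 against 1.17 to 2.97 FPKM.

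Med23+/+ replicate 3 was the lowest of its genotype for 41 of the 50 genes, and Med23-/- replicate 4 was the highest of its genotype for 42 of 50. These 2 libraries stood at the ends of the values. The counts at the adjusted p for the 50 genes as a whole and for each pathway list are given below with and without both.

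Replication genes were higher in Med23-/- iOLs at nearly every step after origin recognition. At an adjusted p under 0.05, 36 of the 50 genes were higher, where 15.9% of all genes tested were higher, and none was lower, where 14.1% of all genes tested were lower. In either direction, 30.0% of all genes passed. At an unadjusted p under 0.05, 42 were higher and 1, Orc2, was lower. All 50 had a mean of at least 1 FPKM and were tested. Their median log2 fold change was 0.69, beside -0.01 over all genes tested, and ranged from -0.26 for Orc2 to 1.39 for Uhrf1. More than a 2-fold change along with the adjusted p was found for 6 of the 50, against 2.98% of all genes: Uhrf1, Tk1, Mcm5, Gins2, Rrm2 and Lig1. Over the alternatives described below, their lowest log2 fold changes ran from 0.64 for Rrm2 to 0.97 for Uhrf1, so none of the 6 kept a 2-fold change throughout. The 4 Med23-/- libraries all lay above the 4 Med23+/+ libraries for 36 genes, against 16.3% of all genes. In bulk RNA, fewer cells of a kind and less RNA per cell cannot be told apart. With Med23+/+ replicate 3 and Med23-/- replicate 4 both left out, 27 genes were higher, none was lower, and the median log2 fold change was 0.43, and all 27 were among the 36. The 9 genes no longer called in those 6 libraries were Cdt1, Gins3, Gmnn, Mcm10, Pold3, Prim2, Rfc2, Rfc3 and Slbp.

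**Figure D1:**
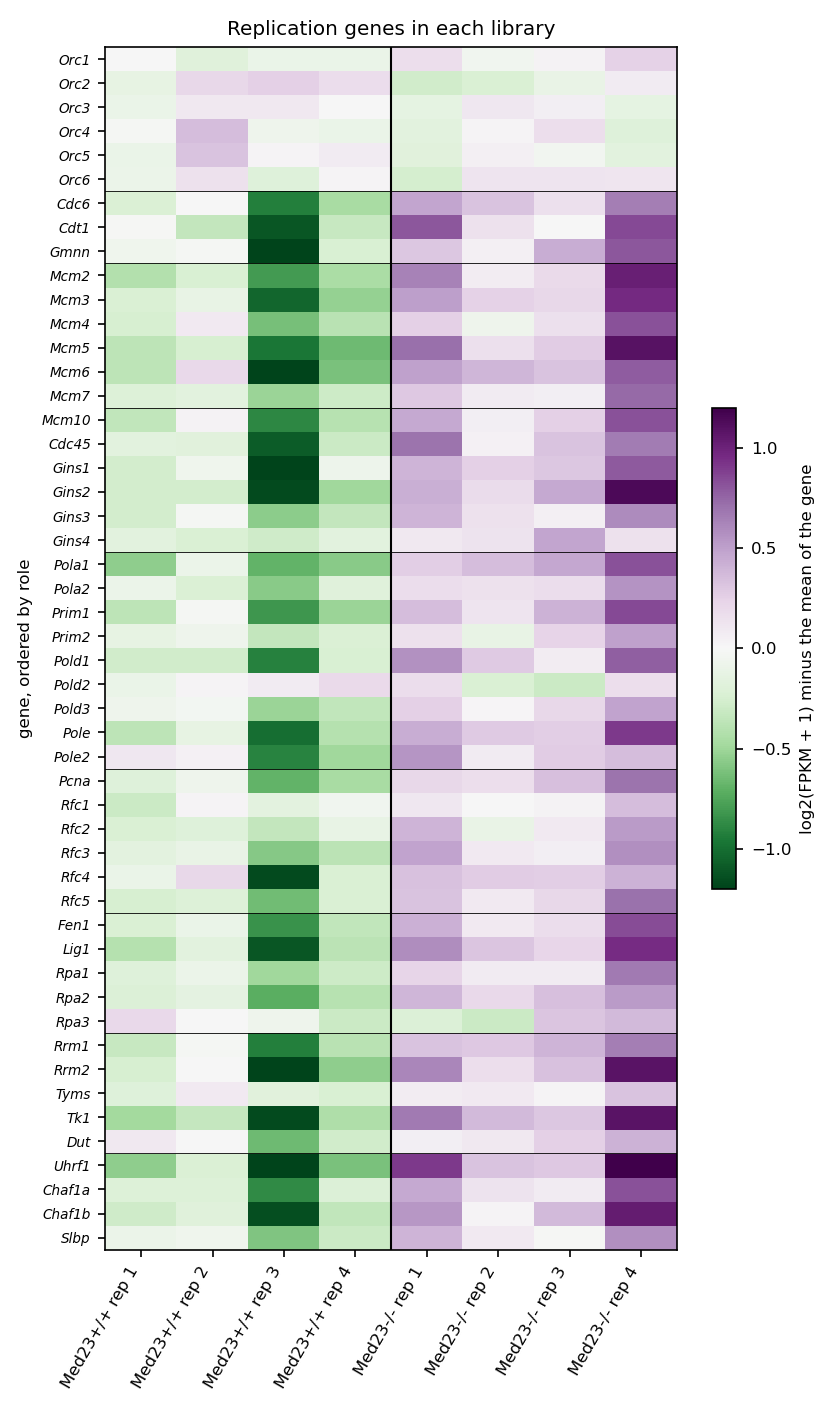
Heat map of the 50 genes by role in the 8 libraries, each cell giving log2(FPKM + 1) minus the gene's mean over all libraries. Med23-/- replicate 4 holds the highest values and Med23+/+ replicate 3 the lowest for most genes, while the origin recognition genes at the top lack this pattern.

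The mean of log2(FPKM + 1) over the 50 genes gave each library 1 value. The Med23+/+ libraries were at 3.65, 3.79, 3.16 and 3.55 and the Med23-/- libraries at 4.18, 3.97, 4.05 and 4.48, a difference of means of 0.63. The genotypes did not overlap, and Med23+/+ replicate 2 came closest to the Med23-/- libraries. Replicates 1 and 2 differed by 0.35 between genotypes and replicates 3 and 4 by 0.91. Both extreme libraries, Med23+/+ replicate 3 and Med23-/- replicate 4, are among replicates 3 and 4. Within replicates 1 and 2, 44 of the 50 genes were higher in Med23-/-, with a median difference of 0.41 on the log2 scale, and within replicates 3 and 4, 46 of 50, with a median of 1.00.

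**Figure D2:**
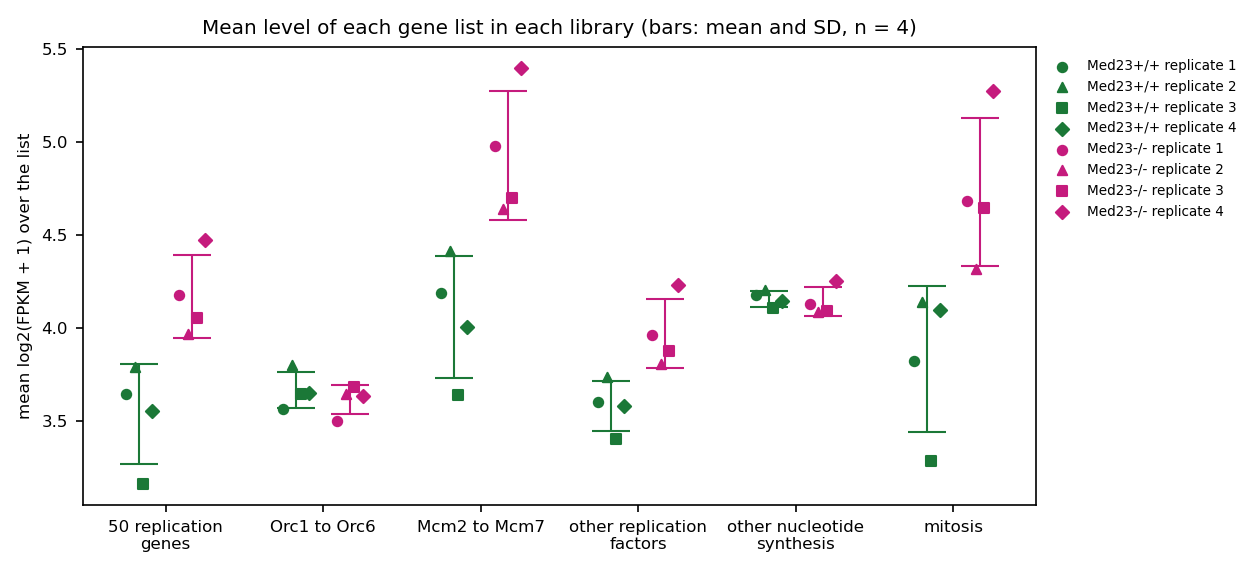
Mean of log2(FPKM + 1) over gene lists in each library, by genotype, with bars for the genotype mean and SD (n = 4). The 50 replication genes lie at 3.16 to 3.79 in Med23+/+ and 3.97 to 4.48 in Med23-/-, and the Orc genes and the other nucleotide synthesis genes overlap between genotypes.

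The sequence before the start site is shown for 6 genes as examples, picked with their values known, because several of these promoters are textbook E2F targets. Whether such sites bear on the genotype difference was not tested. The RefSeq table (GRCm38.p6, the assembly of mm10) held a promoter for 42 of the 50 genes, and the 250 bases before the first listed start are printed 5′ to 3′ on the gene's strand. Capitals mark E2F-type matches on either strand, searched as the letters TTCCCGC, the related TTCGCGC, the related TTGCCGC and the related TTGGCGC. Mcm5, at chr8:75109259-75109508 on the plus strand, had 3 such matches, at -164, -152 and -149 from the start, and those at -152 and -149 overlap. Mcm6, at chr1:128359706-128359955 on the minus strand, had 4, in 2 overlapping pairs. Uhrf1 (chr17:56303087-56303336, plus strand) and Rrm2 (chr12:24708004-24708253, plus strand) had 1 match each. Tk1 (chr11:117826015-117826264, minus strand) and Orc2 (chr1:58505110-58505359, minus strand) had none of these letters in the printed bases.
Mcm5: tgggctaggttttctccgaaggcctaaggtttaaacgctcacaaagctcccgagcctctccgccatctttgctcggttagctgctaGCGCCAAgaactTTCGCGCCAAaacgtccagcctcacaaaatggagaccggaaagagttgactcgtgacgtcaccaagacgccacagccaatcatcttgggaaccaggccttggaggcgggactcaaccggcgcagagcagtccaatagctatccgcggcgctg
Mcm6: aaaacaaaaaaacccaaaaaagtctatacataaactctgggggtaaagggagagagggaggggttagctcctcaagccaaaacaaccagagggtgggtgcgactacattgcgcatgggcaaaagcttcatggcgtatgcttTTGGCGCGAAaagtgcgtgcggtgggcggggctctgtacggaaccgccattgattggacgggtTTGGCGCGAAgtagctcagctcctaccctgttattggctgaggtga
Uhrf1: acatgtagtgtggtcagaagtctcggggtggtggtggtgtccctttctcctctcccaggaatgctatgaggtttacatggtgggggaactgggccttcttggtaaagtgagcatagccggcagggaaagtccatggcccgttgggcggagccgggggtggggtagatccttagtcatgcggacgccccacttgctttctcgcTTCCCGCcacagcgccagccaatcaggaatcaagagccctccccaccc
Rrm2: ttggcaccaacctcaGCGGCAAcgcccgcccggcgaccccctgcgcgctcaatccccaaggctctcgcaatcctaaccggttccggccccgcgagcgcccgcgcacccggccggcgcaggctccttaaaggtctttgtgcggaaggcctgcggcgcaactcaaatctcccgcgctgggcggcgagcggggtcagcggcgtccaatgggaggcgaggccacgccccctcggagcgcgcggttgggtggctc
Tk1: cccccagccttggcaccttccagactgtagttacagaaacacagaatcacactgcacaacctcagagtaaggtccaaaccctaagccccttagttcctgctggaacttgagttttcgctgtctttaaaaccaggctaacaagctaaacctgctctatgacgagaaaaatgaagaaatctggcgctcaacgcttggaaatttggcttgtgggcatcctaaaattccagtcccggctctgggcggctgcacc
Orc2: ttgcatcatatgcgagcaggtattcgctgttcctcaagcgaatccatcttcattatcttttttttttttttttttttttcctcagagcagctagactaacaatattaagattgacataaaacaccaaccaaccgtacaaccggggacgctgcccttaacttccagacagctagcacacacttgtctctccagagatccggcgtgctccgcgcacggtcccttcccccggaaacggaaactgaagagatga

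In windows of 300 bases, 250 before and 50 after the start, E2F-type letters were found for 24 of the 42 genes (57.1%), against 9.69% of 27025 promoters in the table and 18.1% of 9295 promoters of genes tested. Among the 29 called genes with a promoter, 18 (62.1%) held a match, as did 6 of the 13 genes not called (46.2%). Of the 6 Orc genes, 2 held a match (33.3%), Orc1 and Orc3. The CCAAT box, searched as CCAAT on both strands, was found for 25 of 42 genes (59.5%), against 39.4% of genes tested. The GC box GGGCGG, which overlaps TTCCCGC when the strands are opposed, was found for 76.2%, against 66.7% of genes tested. It was found for 20 of the 29 called genes (69.0%), near the share of genes tested, and for 12 of the 13 not called (92.3%). The cell cycle homology element TTTGAA was found for 4 of the 42 (9.52%), against 11.1% of genes tested. These matches describe letters in a window and do not show binding.

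None of the 6 subunits of the origin recognition complex, which marks the sites where replication can begin, passed the test. Orc2 read 17.1, 21.9, 22.6 and 21.3 FPKM in Med23+/+ against 15.3, 15.9, 17.4 and 19.9 FPKM in Med23-/- (log2 fold change -0.26 ± 0.11 SE, limma adjusted p = 0.101). Its ranges overlapped, and Med23+/+ replicate 1 was the low library of its genotype. It passed as lower without Med23+/+ replicate 1 or Med23-/- replicate 4 (adjusted p = 0.0343 and 0.0454). Orc1, the subunit whose level follows the cell cycle, was the scarcest of the 50 genes at 1.08 ± 0.107 FPKM in Med23+/+ against 1.39 ± 0.218 FPKM in Med23-/- (mean ± SD, n = 4), with a log2 fold change of 0.20 (adjusted p = 0.249). Orc3, Orc4, Orc5 and Orc6 had log2 fold changes between -0.16 and 0.06 and adjusted p-values between 0.268 and 0.746. In Orc2, 29.8% of the exonic bases lie opposite Nif3l1 (log2 fold change -0.17, adjusted p = 0.159), and whether the counting used strand is not given in the sources used here.

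All 3 licensing genes passed the test, Gmnn by little. Cdc6, the ATPase that joins the origin complex to load the helicase, was at 2.76, 3.42, 1.31 and 2.18 FPKM in Med23+/+ against 5.10, 4.48, 3.90 and 5.90 FPKM in Med23-/- (log2 fold change 0.80 ± 0.20 SE, limma adjusted p = 0.0125). Cdt1, which carries the MCM ring to the origin, was at 8.06, 6.21, 3.22 and 6.28 and 14.9, 9.12, 8.10 and 15.4 FPKM (log2 fold change 0.89 ± 0.26 SE, limma adjusted p = 0.0273). Gmnn encodes geminin, the inhibitor that binds CDT1 and blocks licensing again within the same cycle. It was at 8.93, 9.23, 3.32 and 7.79 and 11.8, 9.79, 13.0 and 17.1 FPKM (log2 fold change 0.80 ± 0.27 SE, limma adjusted p = 0.048). For all 3 genes, Med23+/+ replicate 3 was the lowest library and no Med23-/- library fell within the Med23+/+ range. The ratio of Cdt1 to Gmnn in FPKM was 0.903, 0.673, 0.97 and 0.807 in Med23+/+ and 1.26, 0.931, 0.622 and 0.902 in Med23-/-. These ratios overlapped between genotypes. The call of Gmnn was lost in 14 of 18 alternatives, other scalings and the lower pseudocount included, with adjusted p up to 0.106, that without Med23-/- replicate 4, and it was also lost without Med23+/+ replicate 3 or 4 and without Med23-/- replicate 1 or 3. The call of Cdt1 was lost in 5 of 18, among them without Med23+/+ replicate 3 (adjusted p = 0.0571) and without Med23-/- replicate 1 or 4 (adjusted p = 0.0756 and 0.0617).

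The MCM helicase, a ring of 6 subunits that unwinds DNA ahead of the fork, rose in 5 of its 6 genes, with a median log2 fold change of 0.96 over the 6. Mcm5 (chromosome 8, 75109569 to 75128439) was at 15.1, 16.5, 9.68 and 12.2 FPKM in Med23+/+ against 33.3, 22.2, 24.1 and 43.4 FPKM in Med23-/- (log2 fold change 1.12 ± 0.22 SE, limma adjusted p = 0.00436). Its Med23-/- mean was 2.30 times its Med23+/+ mean. Mcm6 was at 16.7, 25.2, 8.91 and 13.9 and 31.2, 28.9, 27.7 and 38.2 FPKM (log2 fold change 1.00 ± 0.25 SE, limma adjusted p = 0.0143). For Mcm6 the Med23+/+ libraries spread over 8.91 to 25.2 FPKM, and the highest of them stood just under the lowest Med23-/- library.

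Mcm2 was at 15.3, 17.5, 11.5 and 14.9 FPKM in Med23+/+ against 32.9, 22.0, 23.9 and 43.2 FPKM in Med23-/- (log2 fold change 0.96 ± 0.20 SE, limma adjusted p = 0.00654). Mcm3 was at 11.9, 12.9, 6.34 and 9.46 and 20.3, 16.9, 16.4 and 28.4 FPKM (log2 fold change 0.96 ± 0.22 SE, limma adjusted p = 0.00956). Mcm7, the most abundant subunit in every library, was at 35.0, 36.0, 28.1 and 32.8 and 49.8, 42.7, 42.3 and 68.1 FPKM (log2 fold change 0.58 ± 0.15 SE, limma adjusted p = 0.016). In each of these genes the genotypes were apart and Med23-/- replicate 4 was the highest library. Mcm4 was the exception, with 16.2, 20.7, 12.3 and 14.5 FPKM in Med23+/+ against 23.3, 18.4, 21.7 and 35.1 FPKM in Med23-/- (log2 fold change 0.58 ± 0.20 SE, limma adjusted p = 0.0504), and its Med23-/- replicate 2 lay below Med23+/+ replicate 2. Without Med23+/+ replicate 2 or Med23-/- replicate 2 it passed the test (adjusted p = 0.0291 and 0.0287). The 6 subunits enter the ring in equal numbers, and the highest was 3.42 ± 0.739 times the lowest in Med23+/+ and 2.49 ± 0.0804 times in Med23-/- (SD, n = 4), on the FPKM scale. Against Orc2, Mcm5 stood at 0.66 ± 0.2 in Med23+/+ and 1.79 ± 0.451 in Med23-/-, with no overlap between genotypes.

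**Figure D3:**
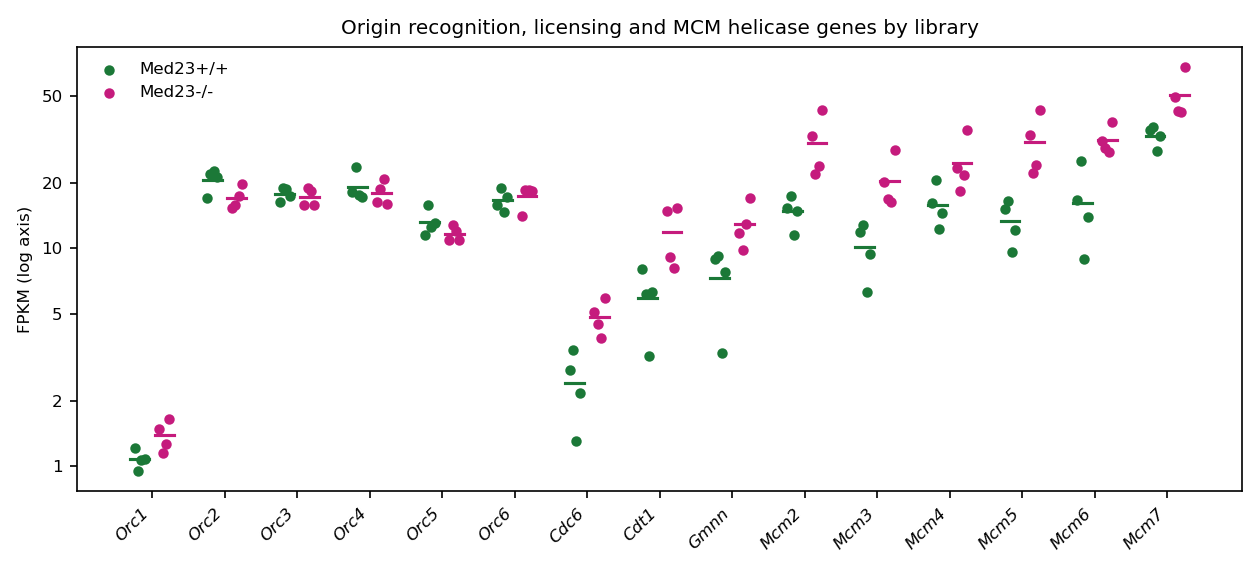
FPKM, on a log axis, of origin recognition, licensing and MCM genes in each library, with a point for each replicate and a bar for the genotype mean. The Orc genes overlap between genotypes, while Mcm5 runs from 9.68 to 16.5 FPKM in Med23+/+ and from 22.2 to 43.4 FPKM in Med23-/-.

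All 6 genes that turn the loaded ring into a running helicase rose, with a median log2 fold change of 0.83. Gins2 (chromosome 8, 120578633 to 120589304), a subunit of the GINS complex, was at 6.38, 6.38, 2.96 and 5.31 FPKM in Med23+/+ against 11.0, 9.09, 11.2 and 18.6 FPKM in Med23-/- (log2 fold change 1.10 ± 0.24 SE, limma adjusted p = 0.0077). Of its exonic bases, 67.3% lie opposite Gse1, for which the log2 fold change was 0.26 (adjusted p = 0.0811). Gins1, its partner in the complex, was at 5.44, 6.42, 2.03 and 6.31 and 9.19, 8.26, 8.54 and 12.4 FPKM (log2 fold change 0.88 ± 0.27 SE, limma adjusted p = 0.0332). Gins3 was at 2.19, 2.78, 1.59 and 2.01 and 4.04, 3.23, 2.98 and 4.80 FPKM (log2 fold change 0.60 ± 0.16 SE, limma adjusted p = 0.0176). Gins4 moved least, from 14.7, 14.0, 13.4 and 14.6 to 17.8, 18.2, 23.3 and 18.4 FPKM (log2 fold change 0.42 ± 0.10 SE, limma adjusted p = 0.00831), and its Med23-/- replicate 3 rather than 4 was the highest. Gins1 was no longer called without Med23-/- replicate 1, 3 or 4 (adjusted p = 0.066, 0.0529 and 0.0741). The GINS subunits spanned log2 fold changes of 0.42 to 1.10.

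Cdc45, which binds MCM and GINS to form the active helicase, was at 7.05, 6.96, 3.24 and 6.30 FPKM in Med23+/+ against 13.6, 8.28, 10.3 and 13.2 FPKM in Med23-/- (log2 fold change 0.86 ± 0.22 SE, limma adjusted p = 0.016). Mcm10, which triggers unwinding and links the helicase to polymerase alpha, was at 3.63, 5.04, 2.21 and 3.49 and 7.10, 5.15, 6.04 and 9.46 FPKM (log2 fold change 0.80 ± 0.21 SE, limma adjusted p = 0.0176). Both were apart between genotypes, Mcm10 by the narrow step between Med23+/+ replicate 2 and Med23-/- replicate 2.

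Among 9 polymerase genes, 7 rose and Pold2 and Pole2 did not pass the test, and the median log2 fold change was 0.62. Pola1, the catalytic subunit of polymerase alpha, had the smallest adjusted p of the 50 genes. It was at 5.54, 8.001, 4.94 and 5.47 FPKM in Med23+/+ against 10.6, 11.2, 12.2 and 15.9 FPKM in Med23-/- (log2 fold change 0.95 ± 0.16 SE, limma adjusted p = 0.00173), and Med23-/- replicate 4 stood highest. Its accessory subunit Pola2 was at 8.41, 7.60, 5.76 and 7.81 and 10.3, 10.1, 10.3 and 13.8 FPKM (log2 fold change 0.53 ± 0.13 SE, limma adjusted p = 0.0133). Prim1, the primase subunit that makes the RNA primer, was at 10.5, 13.7, 7.43 and 9.45 and 18.0, 15.3, 18.8 and 25.8 FPKM (log2 fold change 0.87 ± 0.19 SE, limma adjusted p = 0.00701). Prim2, the other primase subunit, was at 14.9, 15.5, 12.6 and 13.8 and 18.2, 14.9, 19.5 and 23.4 FPKM (log2 fold change 0.38 ± 0.13 SE, limma adjusted p = 0.0453). Prim2 was the only called gene of the 50 whose genotypes overlapped, because Med23-/- replicate 2 lay within the Med23+/+ range. Its call was lost when any single library other than Med23-/- replicate 2 was left out, with adjusted p of 0.0559 to 0.116.

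Pold1, the catalytic subunit of the lagging-strand polymerase delta, was at 10.5, 10.5, 6.33 and 10.8 FPKM in Med23+/+ against 19.6, 15.9, 13.5 and 22.7 FPKM in Med23-/- (log2 fold change 0.85 ± 0.19 SE, limma adjusted p = 0.00794). Pold3, an accessory subunit, was at 8.17, 8.46, 5.76 and 6.57 and 10.5, 8.77, 10.2 and 12.5 FPKM (log2 fold change 0.48 ± 0.14 SE, limma adjusted p = 0.023). Pold2, the subunit that bridges the other two, was at 19.9, 21.8, 22.7 and 24.6 and 24.2, 18.1, 17.1 and 24.1 FPKM (log2 fold change -0.10 ± 0.13 SE, limma adjusted p = 0.585). Within the same enzyme, 2 of these subunits rose while the ranges of the third overlapped. Pole, the catalytic subunit of the leading-strand polymerase epsilon, was at 5.02, 6.15, 2.91 and 4.88 and 9.58, 8.48, 8.398 and 13.6 FPKM (log2 fold change 0.95 ± 0.20 SE, limma adjusted p = 0.00616). Pole2, its second subunit, was at 3.69, 3.47, 1.32 and 2.09 and 5.33, 3.58, 4.26 and 4.53 FPKM (log2 fold change 0.62 ± 0.22 SE, limma adjusted p = 0.0559) and overlapped between genotypes. Pold4, of polymerase delta, and Pole3 and Pole4, of polymerase epsilon, are counted with the other replication factors below. None of them was called (log2 fold changes -0.07, 0.31 and -0.28, limma adjusted p = 0.737, 0.196 and 0.174). They were named after their values were seen. Pold3 was no longer called without Med23+/+ replicate 3 or 4 or Med23-/- replicate 1 or 4 (adjusted p = 0.0519 to 0.0628), and Pole2 passed without Med23+/+ replicate 1 or 2 (adjusted p = 0.0301 and 0.0428). The ratio of Pola1 to Pold2 in FPKM was 0.271 ± 0.0699 in Med23+/+ and 0.607 ± 0.12 in Med23-/- (SD, n = 4).

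**Figure D4:**
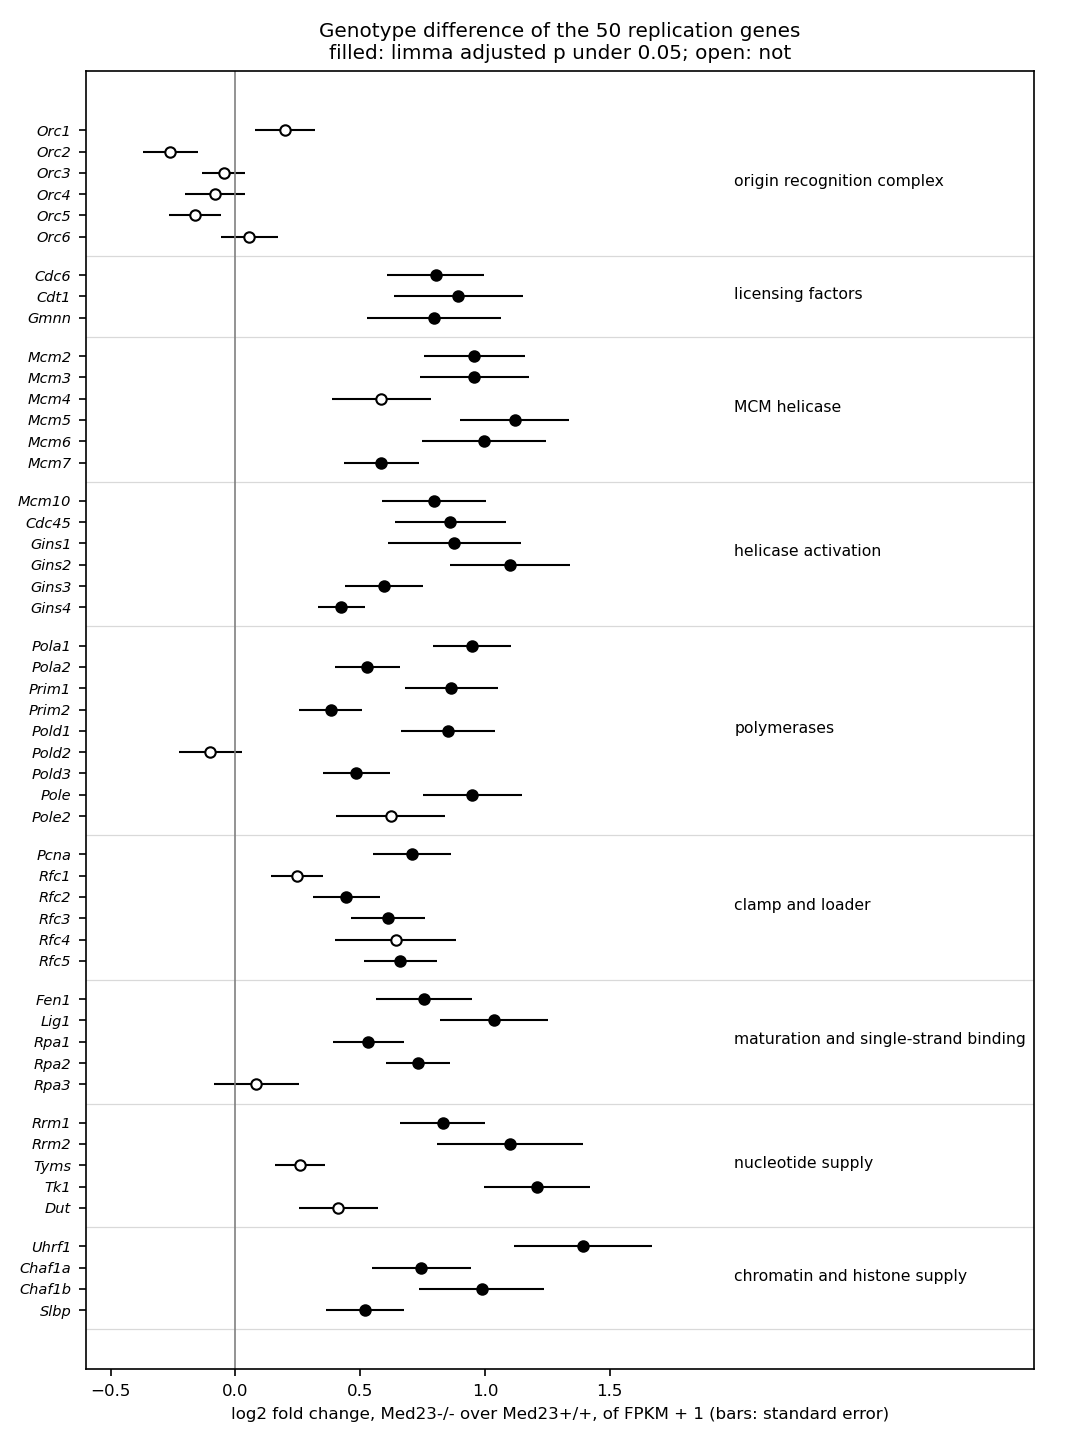
Log2 fold change of each of the 50 genes on the log2(FPKM + 1) scale, Med23-/- minus Med23+/+, grouped by role, with bars of 1 standard error and filled points for an adjusted p under 0.05. Points run from -0.26 for Orc2 to 1.39 for Uhrf1, and the 36 filled points all lie above 0.

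Of the 6 genes of the clamp and its loader, 4 rose. Pcna (chromosome 2, 132249162 to 132253314), the ring that holds polymerases on DNA, was the most abundant of the 50 genes at 122, 132, 85.4 and 100.2 FPKM in Med23+/+ against 161, 156, 176 and 225 FPKM in Med23-/- (log2 fold change 0.71 ± 0.16 SE, limma adjusted p = 0.00808). Reads could also be shared with annotated Pcna pseudogenes. The loader RFC opens the clamp, and its subunit Rfc2 was at 16.8, 17.2, 15.5 and 18.2 and 26.5, 18.4, 21.2 and 29.0 FPKM (log2 fold change 0.45 ± 0.13 SE, limma adjusted p = 0.0304). Rfc2 overlaps Lat2 on the opposite strand over 15.1% of its exonic bases (log2 fold change of Lat2 0.02, adjusted p = 0.952). Rfc3 was at 11.6, 11.97, 8.38 and 9.74 and 18.6, 13.9, 13.6 and 19.9 FPKM (log2 fold change 0.61 ± 0.15 SE, limma adjusted p = 0.0127). Rfc5 was at 10.4, 10.8, 7.72 and 10.6 and 15.97, 13.4, 14.8 and 21.1 FPKM (log2 fold change 0.66 ± 0.15 SE, limma adjusted p = 0.0081). In these 4 genes every Med23-/- library was above every Med23+/+ library. Rfc2 was no longer called without Med23+/+ replicate 1, 2 or 3 or Med23-/- replicate 1 or 4 (adjusted p = 0.0574 to 0.0827).

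Rfc4 was apart between genotypes yet did not pass the test, with 14.3, 17.9, 6.29 and 13.0 FPKM in Med23+/+ against 19.6, 18.9, 18.7 and 20.7 FPKM in Med23-/- (log2 fold change 0.64 ± 0.24 SE, limma adjusted p = 0.0721). Its Med23+/+ libraries were spread by the low replicate 3, while the Med23-/- libraries lay close together. It passed without Med23+/+ replicate 2 or 3 (adjusted p = 0.0293 and 0.0474). Rfc1, the large subunit, had a log2 fold change of 0.25 (adjusted p = 0.106) and overlapped.

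Single-strand binding and Okazaki fragment genes rose in 4 of 5 cases. Lig1 (chromosome 7, 13277283 to 13311433), the ligase that seals Okazaki fragments, was at 11.95, 14.3, 6.93 and 12.2 FPKM in Med23+/+ against 24.8, 20.4, 19.0 and 32.1 FPKM in Med23-/- (log2 fold change 1.04 ± 0.22 SE, limma adjusted p = 0.00593). Fen1, the nuclease that trims the primer flap, was at 14.1, 15.6, 8.85 and 12.9 and 22.5, 17.8, 18.9 and 30.6 FPKM (log2 fold change 0.76 ± 0.19 SE, limma adjusted p = 0.0158), and 78.8% of its exonic bases lie opposite the predicted gene Gm10143, which was not tested. For both genes Med23+/+ replicate 3 was lowest and Med23-/- replicate 4 highest.

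The trimer RPA coats single-stranded DNA, and its largest subunit Rpa1 was at 16.7, 18.1, 13.4 and 15.5 FPKM in Med23+/+ against 22.8, 20.4, 20.5 and 31.3 FPKM in Med23-/- (log2 fold change 0.53 ± 0.14 SE, limma adjusted p = 0.0191). Rpa2 was at 12.6, 13.3, 8.59 and 11.0 and 19.7, 17.2, 19.1 and 21.7 FPKM (log2 fold change 0.73 ± 0.13 SE, limma adjusted p = 0.00259). The smallest subunit, Rpa3, was at 29.0, 25.3, 24.0 and 20.2 and 21.6, 20.2, 31.5 and 32.9 FPKM (log2 fold change 0.08 ± 0.17 SE, limma adjusted p = 0.749). Rpa1 and Rpa2 were apart between genotypes, whereas for Rpa3 the 2 higher Med23-/- libraries lay above the Med23+/+ range and the 2 lower ones lay at its foot. Rpa1 was no longer called without Med23+/+ replicate 3 (adjusted p = 0.054).

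Of the 5 enzymes of deoxynucleotide supply, 3 rose. Rrm2 (chromosome 12, 24708241 to 24714146), the small subunit of ribonucleotide reductase whose level peaks in S phase, was at 45.4, 54.3, 19.9 and 36.8 FPKM in Med23+/+ against 83.8, 61.0, 68.5 and 116 FPKM in Med23-/- (log2 fold change 1.10 ± 0.29 SE, limma adjusted p = 0.0187). Rrm1, the large subunit, was at 33.6, 41.8, 21.9 and 32.1 and 53.2, 52.1, 56.0 and 67.3 FPKM (log2 fold change 0.83 ± 0.17 SE, limma adjusted p = 0.00579). Tk1 (chromosome 11, 117815526 to 117826092), the thymidine kinase of the salvage pathway, was at 9.75, 10.9, 5.71 and 10.1 and 22.9, 18.4, 17.5 and 30.8 FPKM (log2 fold change 1.21 ± 0.21 SE, limma adjusted p = 0.00252). The Med23-/- mean of Tk1 was 2.46 times the Med23+/+ mean, and no library crossed. The ratio of Rrm2 to Rrm1 in FPKM was 1.18 ± 0.197 in Med23+/+ and 1.42 ± 0.271 in Med23-/- (SD, n = 4), ranges that overlapped.

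Tyms, thymidylate synthase of the de novo pathway, was at 13.0, 16.1, 13.2 and 12.6 FPKM in Med23+/+ against 15.8, 16.1, 15.4 and 19.1 FPKM in Med23-/- (log2 fold change 0.26 ± 0.10 SE, limma adjusted p = 0.0803). Its ranges overlapped, and an annotated Tyms pseudogene could share reads. Dut, the dUTPase that keeps uracil out of DNA, was at 17.4, 16.2, 9.94 and 13.2 and 16.9, 17.4, 19.5 and 21.8 FPKM (log2 fold change 0.41 ± 0.16 SE, limma adjusted p = 0.0774). For Dut, Med23-/- replicates 3 and 4 lay above every Med23+/+ library, and Med23-/- replicates 1 and 2 lay just under the highest of them. Tyms passed without Med23+/+ replicate 2 (adjusted p = 0.0305) and Dut without Med23+/+ replicate 1 (adjusted p = 0.0407).

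All 4 genes that package or mark the new DNA rose, with a median log2 fold change of 0.87. Uhrf1 (chromosome 17, 56303321 to 56323486), which brings the maintenance methyltransferase to newly copied DNA, had the largest fold change of the 50 genes. It was at 13.4, 17.1, 6.98 and 12.8 FPKM in Med23+/+ against 38.5, 25.4, 24.99 and 49.7 FPKM in Med23-/- (log2 fold change 1.39 ± 0.28 SE, limma adjusted p = 0.00476), and its Med23-/- mean was 2.75 times its Med23+/+ mean. The spread within Med23-/- was wide, with replicates 1 and 4 above replicates 2 and 3, and all 4 stood above Med23+/+. Dnmt1, the methyltransferase that UHRF1 recruits, is in the list of other replication factors below and was named after its values were seen. It went from 27.7 ± 1.40 to 43.9 ± 10.6 FPKM (mean ± SD, n = 4, log2 fold change 0.62 ± 0.15 SE, limma adjusted p = 0.0106).

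Chaf1a and Chaf1b encode the large and middle subunits of CAF-1, which places histones on the new strands. Chaf1b was at 3.51, 3.85, 1.49 and 3.33 FPKM in Med23+/+ against 7.04, 4.59, 6.15 and 10.3 FPKM in Med23-/- (log2 fold change 0.99 ± 0.25 SE, limma adjusted p = 0.0155). Chaf1a was at 8.54, 8.53, 4.95 and 8.43 and 14.0, 11.0, 10.6 and 18.3 FPKM (log2 fold change 0.75 ± 0.20 SE, limma adjusted p = 0.019), and 52.5% of its exonic bases lie opposite Ubxn6 (log2 fold change 0.15, adjusted p = 0.388). Slbp, which binds the stem loop of histone mRNAs, was at 15.9, 16.2, 10.9 and 13.5 and 22.5, 18.0, 16.7 and 25.7 FPKM (log2 fold change 0.52 ± 0.16 SE, limma adjusted p = 0.0317). In these 3 genes the genotypes did not overlap. Slbp was no longer called without Med23+/+ replicate 3 or 4 or Med23-/- replicate 1 or 4 (adjusted p = 0.0679 to 0.0822).

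Other genes of the pathway, listed by role but with earlier results of these data known, were counted beside the shares of all genes tested, 15.9% higher and 14.1% lower. Of 31 other replication factors, 14 were higher, none was lower and 17 did not pass, with a median log2 fold change of 0.46. At an unadjusted p under 0.05, 16 were higher and 1, Rnaseh2b, a subunit of the enzyme that removes RNA from DNA, was lower, and 9 of the 31 were higher at the adjusted p with both extreme libraries left out. Top2a, the topoisomerase that untangles copied chromosomes, went from 49.4 ± 15.1 to 106 ± 28.3 FPKM (log2 fold change 1.11 ± 0.24 SE, limma adjusted p = 0.00744). Ticrr, which helps CDC45 join the helicase, went from 3.86 ± 1.26 to 8.20 ± 1.74 FPKM (log2 fold change 0.95 ± 0.21 SE, limma adjusted p = 0.00756). Chtf18, of an alternative clamp loader, had a log2 fold change of 0.91 (adjusted p = 0.00498), and Timeless, of the fork protection complex, 0.88 (adjusted p = 0.00512).

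The remaining 33 genes of nucleotide synthesis and salvage were called about as often as genes in general. Of them 5 were higher, 5 lower and 23 not called, near the 15.9% and 14.1% of all genes tested, with a median log2 fold change of -0.01, and 2 were higher and 4 lower with both extreme libraries left out. Dctd, the deaminase that makes dUMP for thymidylate synthase, fell from 6.55 ± 1.40 to 3.67 ± 0.643 FPKM (log2 fold change -0.68 ± 0.16 SE, limma adjusted p = 0.00927). Ctps, CTP synthase, fell from 37.5 ± 1.53 to 26.7 ± 1.68 FPKM (log2 fold change -0.48 ± 0.07 SE, limma adjusted p = 0.00114). Dck, the deoxycytidine kinase of salvage, rose from 20.8 ± 3.05 to 28.5 ± 1.75 FPKM (log2 fold change 0.45 ± 0.11 SE, limma adjusted p = 0.0107). Atic, the last enzyme on the way to the purine nucleotide IMP, fell with a log2 fold change of -0.43 (adjusted p = 0.00335). Gart and Pfas, also of purine synthesis, were the other lower genes. The other higher ones were Prps2, Ctps2, Samhd1 and Paics, and Paics is of purine synthesis as well (log2 fold change 0.29, limma adjusted p = 0.0211). All 6 were named after their values were seen. Without Med23+/+ replicate 1, 2, 3 or 4, 3, 3, 2 and 3 were higher.

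**Figure D5:**
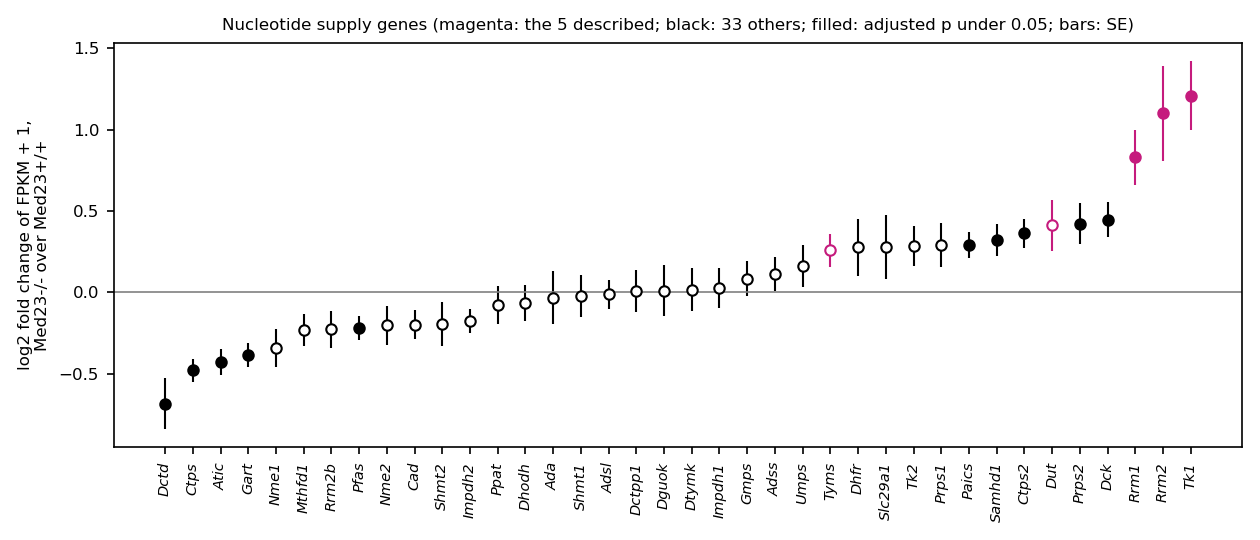
Log2 fold change on the log2(FPKM + 1) scale for 38 genes of nucleotide metabolism in rising order, with the 5 supply genes in magenta, the 33 others in black, filled points for an adjusted p under 0.05 and bars of 1 standard error. Tk1, Rrm2 and Rrm1 hold the right end at 1.21, 1.10 and 0.83, and the 33 others run from -0.68 for Dctd to 0.45 for Dck.

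Among 20 E2F and pocket protein genes and their partners, which turn S phase transcription on and off, 7 were higher, 3 lower and 10 not called, beside 15.9% higher and 14.1% lower of all genes tested, so that the lower count is near the background. With both extreme libraries left out, 4 were higher and 3 lower. The counts were also 4 higher without Med23+/+ replicate 3 or Med23-/- replicate 1, and 1 lower without Med23+/+ replicate 4 or Med23-/- replicate 1. Mybl1, a MYB family factor, fell from 40.4 ± 4.77 to 18.6 ± 1.86 FPKM (log2 fold change -1.08 ± 0.10 SE, limma adjusted p = 0.000111), while its relative Mybl2 rose from 3.39 ± 0.897 to 6.97 ± 2.02 FPKM (log2 fold change 0.85 ± 0.21 SE, limma adjusted p = 0.0124). E2f7, a repressor E2F that is itself made in S phase, had a log2 fold change of 0.95 (adjusted p = 0.0073), and Foxm1, a driver of mitotic genes, 0.94 (adjusted p = 0.0265). Foxm1 was no longer called without Med23+/+ replicate 3, Med23-/- replicate 1 or Med23-/- replicate 4 (adjusted p = 0.0588, 0.0688 and 0.0511), with no filter (adjusted p = 0.0501) or with both extreme libraries left out, where its log2 fold change was 0.51 (adjusted p = 0.0541). Of 12 G1 and S cyclins, kinases and regulators, 6 were higher and 1 was lower, beside 15.9% and 14.1% of all genes tested, both with all libraries and with the extreme libraries left out. Ccnd1, the D cyclin that answers mitogens, rose from 48.7 ± 7.86 to 139 ± 44.2 FPKM (log2 fold change 1.46 ± 0.20 SE, limma adjusted p = 0.000679). Cdk6, its kinase, had a log2 fold change of 1.08 (adjusted p = 0.00119), whereas Cdk4, the lower gene, named after its values were seen, had -0.35 (adjusted p = 0.0105). Ccna2, the S phase cyclin, had a log2 fold change of 1.10 (adjusted p = 0.00774), and Ccnd2 1.04 (adjusted p = 0.0142).

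All 21 genes of the mitosis list were higher, beside 15.9% of all genes tested, with a median log2 fold change of 0.88, and their mean log2(FPKM + 1) was 3.84 ± 0.391 in Med23+/+ and 4.73 ± 0.398 in Med23-/- (SD, n = 4). This count depended on single libraries: it was 10 without Med23+/+ replicate 3, 12 without Med23+/+ replicate 1, 12 without Med23-/- replicate 1 and 12 with both extreme libraries left out. The genotypes were apart for 15 of the 21. Kif11, a spindle motor, went from 20.5 ± 6.73 to 42.7 ± 10.9 FPKM (log2 fold change 1.05 ± 0.24 SE, limma adjusted p = 0.0092), and Cenpa, the centromeric histone, from 22.9 ± 7.90 to 48.7 ± 11.7 FPKM (log2 fold change 1.10 ± 0.26 SE, limma adjusted p = 0.0111). Kif23, a motor of cytokinesis, had a log2 fold change of 1.07 (adjusted p = 0.00524), and Aurkb, a mitotic kinase, 1.02 (adjusted p = 0.0141).

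Of 21 fork checkpoint and repair genes, 14 were higher and 2 were lower, beside 15.9% and 14.1% of all genes tested. The lower genes were Hus1, of the checkpoint clamp, and Rad17, of the loader of that clamp, both named after their values were seen. With both extreme libraries left out, 11 were higher and none was lower, and the lower count was 0 or 1 whenever any single library was left out. Fanci, of the crosslink repair pathway, had a log2 fold change of 1.08 (adjusted p = 0.0051), and Wee1, the kinase that delays mitosis, 0.95 (adjusted p = 0.0067). Cdc25c, the phosphatase that opposes WEE1, had 0.85 (adjusted p = 0.0099). Inhibitors of cyclin-dependent kinases were higher in 3 of 7 cases, beside 15.9% of all genes tested, at the adjusted p, 2 of 7 with both extreme libraries left out, and lower in none. At an unadjusted p under 0.05, 4 were higher and none was lower. Cdkn1a, which encodes p21 and binds both cyclin-dependent kinases and PCNA, was at 13.8, 14.6, 6.15 and 9.12 FPKM in Med23+/+ against 47.5, 40.2, 35.4 and 51.8 FPKM in Med23-/- (log2 fold change 1.96 ± 0.23 SE, limma adjusted p = 0.000315). Its 4 Med23-/- libraries stood far above the 4 Med23+/+ libraries, and Cdkn2c (log2 fold change 0.87 ± 0.17 SE, limma adjusted p = 0.00498) and Cdkn2b (log2 fold change 0.60 ± 0.16 SE, limma adjusted p = 0.0199), inhibitors of CDK4 and CDK6, were the others that rose. Cdkn2b was no longer called without Med23+/+ replicate 3 (adjusted p = 0.0516), with quantile normalization (adjusted p = 0.0795) or with both extreme libraries left out (adjusted p = 0.09).

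Markers of cell state moved with the same genotype contrast, and their part in the replication result was not tested. Over all genes tested, 15.9% were higher and 14.1% lower. Pdgfra, the receptor by which OPCs were captured, went from 121 ± 17.2 to 334 ± 9.59 FPKM (mean ± SD, n = 4, log2 fold change 1.47 ± 0.10 SE, limma adjusted p = 2.33e-05) and Cspg4, which encodes the OPC antigen NG2, from 38.9 ± 8.38 to 103 ± 12.6 FPKM (log2 fold change 1.39 ± 0.14 SE, limma adjusted p = 0.000141). Sox10, a transcription factor of the whole lineage, had a log2 fold change of -0.49 (adjusted p = 0.0203), and Gpr17, of committed precursors, -1.05 (adjusted p = 0.00991). The other 3 of the 7 OPC markers, Olig1, Olig2 and Ptprz1, were not called (log2 fold changes -0.02, 0.51 and 0.14). All 8 markers of differentiating oligodendrocytes were lower, with sums of 1339 to 1605 FPKM in Med23+/+ and 326 to 599.9 FPKM in Med23-/-. Of 8 neuronal markers, 7 were higher, with log2 fold changes from 0.32 for Map2 to 1.54 for Stmn2, and Slc17a7 was not called. Rbfox3, Tubb3, Snap25, Syt1 and Gad1 lay between these. Map2 was the largest part of the neuronal sums, which were 202 to 220.1 FPKM in Med23+/+ and 289 to 380.5 FPKM in Med23-/-. Of 8 astrocyte markers, Gfap, Aqp4 and S100b were lower and Slc1a2 higher, with sums of 219 to 276 and 111 to 165 FPKM. S100b was the largest part of the Med23+/+ sums and went from 125 ± 25.6 to 17.5 ± 6.85 FPKM. Aldh1l1, Slc1a3, Gja1 and Aldoc were not called (log2 fold changes -0.68, 0.09, 0.29 and -0.001). Of 6 pericyte and fibroblast markers, 2 were tested and neither was called, with sums of 1.16 to 9.51 and 2.98 to 16.6 FPKM.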

How the data were processed

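Total RNA from 8 libraries of mouse iOLs, 4 Med23+/+ and 4 Med23-/-, was sequenced from a directional kit. After trimming (Cutadapt) and alignment (TopHat2, mm10), the authors ran cuffdiff with bias and multi-read correction, and deposited FPKM for each library. Tool versions, the annotation and the library normalization are not given in the sources used here. Columns with the authors' genotype means, fold changes, test statistics and p-values were not used. The number of reads is unknown, so counting error could not be computed.

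The 12328 genes whose 8 libraries averaged 1 FPKM or more were tested on log2(FPKM + 1) with limma 3.58.1 (R 4.3.3, eBayes with a variance trend, no block) and Benjamini-Hochberg adjustment at 0.05. The script was tested on simulated data. A low gene's fold change is shrunk by the added 1 FPKM, and genes that share reads with pseudogenes or lie opposite other genes are uncertain. The deposited values were also tested with another pseudocount (0.1), filter, scaling, weights, replicate block and with libraries left out. The 50 genes, the pathway lists and the marker lists were chosen with earlier results of these data known. Members were named if called or apart between genotypes, and in each list up to 4 called genes of largest fold change were named, except 1 that is not reported here. Promoters came from the RefSeq table, overlaps from GENCODE vM21. Nothing in the labels pairs the libraries by replicate number, so no block was used in the main test. Figures were drawn with matplotlib 3.10.9.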

Additional observations from a re-analysis of the deposited data

Results flagged for a closer look

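Among 104 groups of 4 libraries tested (the 50 genes and 2 summaries in each genotype), 7 held 1 library far from the other 3, with a gap to the nearest past Dixon's 95% critical value, which chance gives in about 1 group in 20. The low libraries of Med23+/+ were replicate 3 for Pold1 at 6.33 FPKM, for Rfc5 at 7.72 FPKM and for Chaf1a at 4.95 FPKM. Med23+/+ replicate 2 was high for Orc4 at 23.8 FPKM. In Med23-/-, replicate 1 was low for Orc6 at 14.0 FPKM, replicate 3 was high for Gins4 at 23.3 FPKM and replicate 4 was high for Pola2 at 13.8 FPKM. Of the 4 genes among these that were called and set by an extreme library, Pold1, Rfc5, Chaf1a and Pola2, all kept the call with both extreme libraries left out.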

How the results depend on the processing

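Of the 36 called genes, all kept their direction and 25 their adjusted p under 0.05 in each of the 18 alternatives in which they were tested. Cdc6, one of the 25, and Gins3 were tested in 17, since both fell under the filter of 5 FPKM. The higher count was 36 with a pseudocount of 0.1, 31 with no filter, 35 at a mean of at least 5 FPKM (fewer genes tested), 34 with median-ratio scaling, 35 with quantile normalization, 34 with no variance trend and 37 with sample weights. Leaving out 1 library gave 29 to 38, with 29 without Med23-/- replicate 1 or 4 and 30 without Med23+/+ replicate 3. The lower count was 1 with sample weights and 0 to 1 with 1 library left out, each time Orc2. With both extreme libraries left out, an alternative chosen after seeing the data, 27 were higher and the median log2 fold change was 0.43, beside 0.54 to 0.80 with 1 library left out. The mean difference was 0.35 within replicates 1 and 2 and 0.91 within replicates 3 and 4, which hold both extreme libraries. Over all genes, 1281 were higher and 1517 lower at a mean of at least 5 FPKM, beside 1957 and 1738, and 367 were higher and 216 lower with more than a 2-fold change, which held 6 of the 50. Uncalled genes changed sign: Orc3 to 0.014, Orc6 to -0.027 and Rpa3 to -0.034 with both extreme libraries left out, Orc4, at -0.15 to 0.021 with 1 library left out, without Med23+/+ replicate 2, and Rpa3, at -0.026 to 0.20, without Med23+/+ replicate 4 and without Med23-/- replicates 3 and 4. The cause was not tested. Med23 kept its call in each alternative run.

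Across genes, the deviations of same-numbered libraries correlated at 0.13, -0.1, -0.03 and 0.16, which does not settle whether the numbers pair the samples. Med23+/+ replicate 1 correlated at 0.162 with Med23-/- replicate 2 and at -0.144 with replicate 3. Med23+/+ replicate 4 correlated at 0.142 with Med23-/- replicate 3 and at -0.179 with replicate 1. For Med23+/+ replicates 2 and 3, all correlations lay between -0.1 and 0.1. With replicates 1 and 2 against 3 and 4 as an unplanned covariate, 35 genes were higher and none lower. With the replicate number as a block, 35 genes were higher and none lower, Gmnn and Prim2 losing the call and Pole2 gaining it, and not every library correlated best with its own number.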
